A study of Mus musculus with 20 samples.

Results

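The 10 genes described here make, hold together or cross-link the elastic fibre: Eln, Fbln5, Efemp2, Fbn1 and Mfap4 for the fibre and its scaffold, and Lox, Loxl1, Loxl2, Loxl3 and Loxl4 for the lysyl oxidases. They were taken by symbol from the 15465 named genes that carry values in the breast cancer libraries, each symbol stood on 1 row, and all 10 passed the filter on low values. The series sequenced RNA of whole tumour pieces from 20 samples to ask which genes differ between metastases and the primary tumours of the same mice. The groups used are 4 lung metastases and 4 primary tumours of the BC (breast cancer) model, each genotype 4T1 derived and sampled at 28 days. Libraries whose titles share a code were taken as 1 mouse, so that mice 1 to 4 gave 1 library to each group. No treatment is labelled, and the sources used here give neither strain nor age of the mice. 4T1 is a mouse mammary carcinoma line, so both groups descend from 1 line, and the labels describe an orthotopic model, in which the primary tumour grows in the tissue of origin. The 12 PDAC libraries were not analysed here, because their values did not follow the gene names beside them (Spearman's rho of the mean BC and PDAC values across named rows was 0.102, as a description).

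Elastic fibres give lung, large arteries and skin their recoil. Tropoelastin, the product of Eln, is laid onto microfibrils built mainly of fibrillin-1, guided by fibulin-5 (Fbln5) and fibulin-4 (Efemp2), and lysyl oxidases then oxidise its lysines so that the chains cross-link. The same copper enzymes cross-link collagen, and in tumours Lox and Loxl2 are best known for stiffening the matrix.

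Values are normalised read counts, scaled by the authors so that each library comes to about 1000000, unless called per kb. Depth was 15447918 to 28995834 reads, lowest in the lung metastasis of mouse 3. The keratin gene Krt8 was present in every library (225 to 1462 in lung metastases, against 531 to 1321 in primary tumours). A summed list of 8 genes, called mammary carcinoma epithelium here, stood at 985 to 3339 in lung metastases, against 1442 to 2808 in primary tumours. Whether normal lung epithelium also expressed these genes was not tested, so neither value measures carcinoma content. In the lung metastasis of mouse 3, Krt8 and the sum were the lowest of all libraries, while Cdh1 of the list was the highest (166). In bulk tissue, a change in the number of cells of a type cannot be told apart from a change in RNA per cell.

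Among the 10 genes, 6 rose in lung metastases and 0 fell: Eln, Mfap4, Fbln5 and Fbn1 of the fibre, and Lox and Loxl1 of the oxidases (limma, adjusted p under 0.05). In the same comparison 9.13% of the 14003 genes tested were called, 7.18% higher and 1.96% lower. At an unadjusted p under 0.05, 1 of the 10 was lower (Loxl3), while edgeR called 0 lower and DESeq2 called 1. Over all 14003 genes edgeR called 843 higher and 207 lower, and DESeq2 1468 and 517. These are the background for the edgeR and DESeq2 counts given below. The share of all genes at an unadjusted p under 0.05 was not counted, so counts at that threshold have no background here. The groups did not overlap for the same 6 genes, where 10.4% of all genes tested had every lung metastasis above every primary tumour and 7.56% every one below. The median log2 change was 1.34 over the 10 genes and -0.06 over all genes tested.

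**Figure D1:**
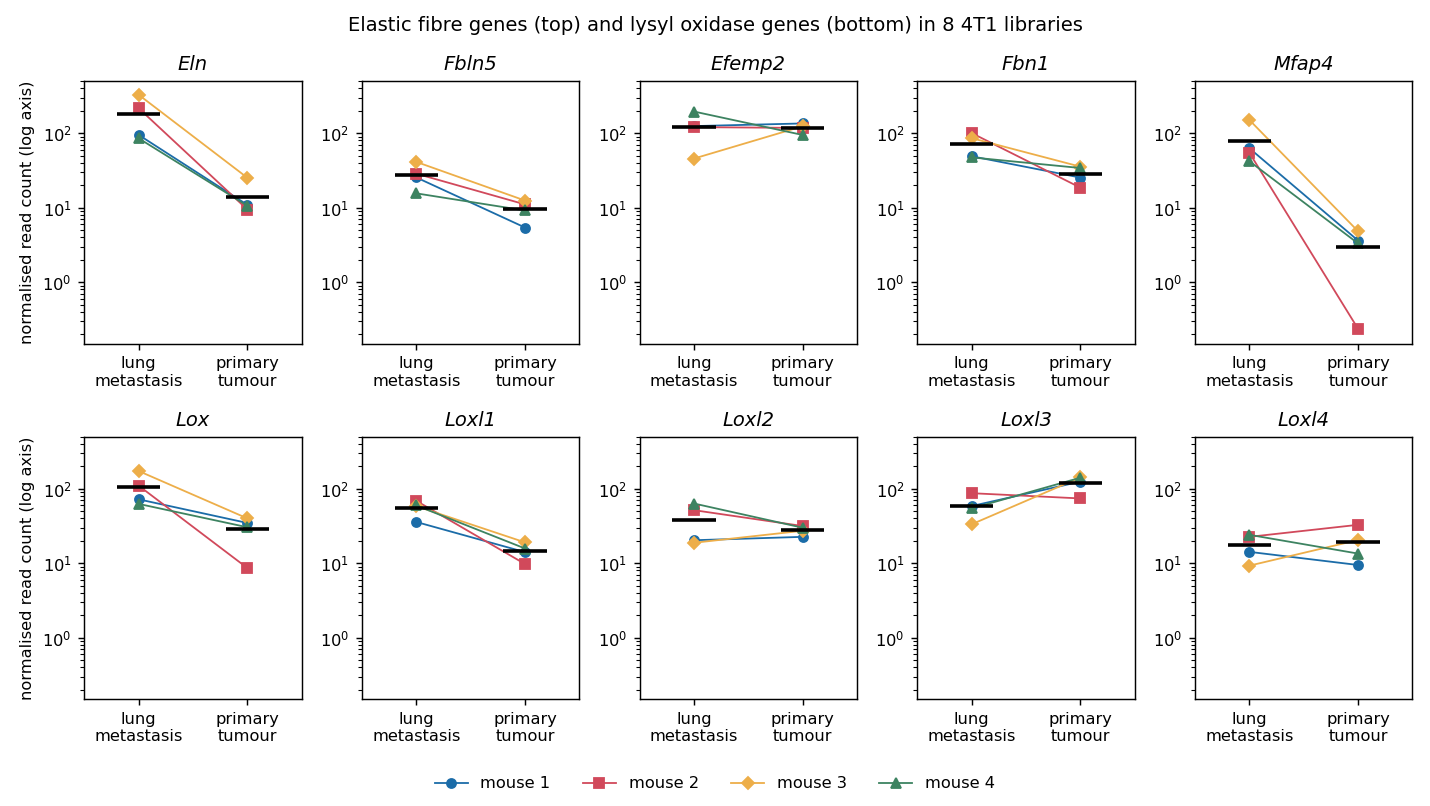
Normalised read count (log axis) of each gene in the lung metastasis (left) and primary tumour (right) of mice 1 to 4, with a line per mouse and a black bar at each group's mean. Eln, Fbln5, Fbn1, Mfap4, Lox and Loxl1 were higher in the lung metastasis of all 4 mice, and Loxl3 of 1 mouse.

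Elastin itself rose strongly. Eln (ENSMUSG00000029675) had 94.7, 216, 327 and 85.2 normalised read counts in the lung metastases of mice 1 to 4, against 10.9, 9.43, 25.2 and 10.6 in their primary tumours. Every lung metastasis stood above every primary tumour, and the metastases of mice 2 and 3 were well above those of mice 1 and 4. The means were 181 ± 114 in lung metastases, against 14.0 ± 7.46 in primary tumours (SD, n = 4 each), a 12.9-fold difference. On the log2(value + 1) scale, which understates changes of low genes, Eln rose by 3.48 (SE 0.446, adjusted p = 0.000881), the 191st largest increase of 14003 genes. Within mice, the lung metastasis held 8.06 to 22.9 times the level of the primary tumour.

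Mfap4, a microfibril-associated glycoprotein that binds fibrillin-1 and tropoelastin, changed more than elastin. It had 62.8, 54.7, 151 and 42.1 normalised read counts in lung metastases, against 3.62, 0.237, 4.82 and 3.31 in primary tumours. The primary tumour of mouse 2 was far below the other primary tumours and rested on 6 reads. Means were 77.5 ± 49.5 in lung metastases, against 3.00 ± 1.95 in primary tumours, a log2 rise of 4.33 (SE 0.522, adjusted p = 0.000662), the 94th largest.

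Fbln5 encodes fibulin-5, which tethers tropoelastin to microfibrils and binds Loxl1. It had 25.4, 28.6, 41.1 and 15.5 normalised read counts in lung metastases, against 5.40, 11.0, 12.4 and 9.16 in primary tumours. The metastasis of mouse 4 lay just above the highest primary tumour, that of mouse 3. The log2 rise was 1.42 (SE 0.336, adjusted p = 0.0246). The call ended without the lung metastasis of mouse 1 (adjusted p = 0.0630) or 2 (0.0670), or the primary tumour of mouse 1 (0.0702) or 4 (0.0731), within a range of 0.000742 to 0.0731 over its 18 alternatives.

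Fbn1, the fibrillin-1 gene, had 48.9, 100.2, 85.6 and 47.3 normalised read counts in lung metastases, against 25.3, 18.5, 35.5 and 34.0 in primary tumours. As with Eln, the metastases of mice 2 and 3 were the higher ones, although here mouse 2 led. The log2 rise was 1.25 (SE 0.298, adjusted p = 0.0254). This call ended without the lung metastasis of mouse 2 (adjusted p = 0.0693) or the primary tumour of mouse 1 (0.0771), 2 (0.0643) or 4 (0.0511), within a range of 0.000991 to 0.0771 over its 18 alternatives.

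Efemp2, encoding fibulin-4, which binds Lox and is needed for elastic fibre assembly, was the scaffold gene that did not pass. It had 124, 120.3, 45.6 and 195 normalised read counts in lung metastases, against 135, 117, 124 and 94.4 in primary tumours. The highest and the lowest value of all 8 libraries were both lung metastases, those of mice 4 and 3. The log2 difference was -0.12 (95% interval -0.92 to 0.69, adjusted p = 0.877).

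**Figure D2:**
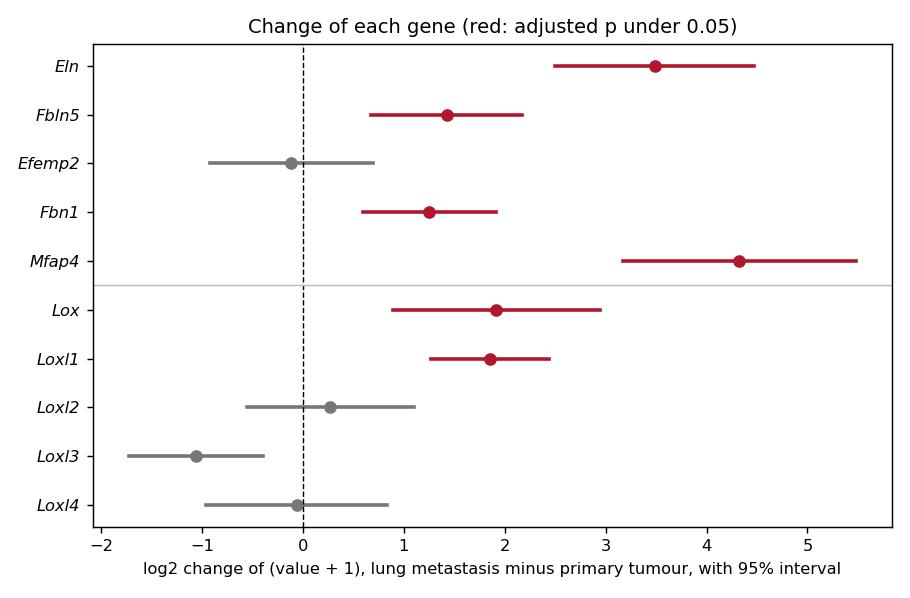
Difference of log2(value + 1), lung metastasis minus primary tumour, for each gene, with its unadjusted 95% interval from limma (n = 4 each); red marks an adjusted p under 0.05. Mfap4 at 4.33 and Eln at 3.48 stand apart from Lox, Loxl1, Fbln5 and Fbn1 at 1.25 to 1.92, while the Loxl3 interval lies below 0 without passing the adjusted threshold.

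RefSeq promoter windows (build GRCm38.p6, 250 bases before to 50 after each start) matched 4 of the 10 genes: Fbn1, Fbln5, Efemp2 and Loxl4. Fbn1 and Fbln5, which rose together, are printed beside Loxl4, which did not pass. These are minus-strand windows at chr2:125506389-125506688, chr12:101819070-101819369 and chr19:42612757-42613056, written 5′ to 3′. Capitals mark GC boxes (GGGCGG on either strand; overlapping matches counted separately).
Fbn1: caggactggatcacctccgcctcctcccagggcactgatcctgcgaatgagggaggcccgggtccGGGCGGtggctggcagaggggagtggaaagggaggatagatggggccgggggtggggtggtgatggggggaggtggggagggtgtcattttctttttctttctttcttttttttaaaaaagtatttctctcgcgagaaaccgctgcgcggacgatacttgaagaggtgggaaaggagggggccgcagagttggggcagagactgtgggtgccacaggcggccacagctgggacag
Fbln5: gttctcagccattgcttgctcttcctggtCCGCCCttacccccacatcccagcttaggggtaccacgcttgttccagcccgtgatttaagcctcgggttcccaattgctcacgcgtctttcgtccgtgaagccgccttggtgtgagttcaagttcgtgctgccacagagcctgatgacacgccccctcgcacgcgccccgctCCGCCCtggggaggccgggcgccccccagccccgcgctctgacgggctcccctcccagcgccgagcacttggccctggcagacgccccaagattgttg
Loxl4: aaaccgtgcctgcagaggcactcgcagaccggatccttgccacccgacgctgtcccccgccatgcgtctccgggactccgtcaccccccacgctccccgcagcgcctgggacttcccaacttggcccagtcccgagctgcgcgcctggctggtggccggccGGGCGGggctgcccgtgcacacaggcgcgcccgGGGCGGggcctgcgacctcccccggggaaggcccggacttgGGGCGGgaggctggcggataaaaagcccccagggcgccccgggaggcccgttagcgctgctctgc
The GC box matched once in Fbn1, at 2 places in Fbln5 and at 3 in Loxl4, and 35.7% of the 32851 promoter windows hold at least 1. The printed Fbln5 window is the upstream one, and the window of its downstream start held none. None of these windows held TATAAA (13.6% of all windows), the hypoxia response core ACGTG (19.6%) or a CArG box (1.63%). An upstream window of Efemp2, a gene that did not pass either, held 1 ACGTG. A match is a description and its absence says nothing of binding.

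Of the 5 lysyl oxidases, Lox and Loxl1 rose and the others did not pass. Lox, the founding enzyme of the family, which oxidises both tropoelastin and collagen, had 72.0, 109.8, 173 and 62.5 normalised read counts in lung metastases, against 34.6, 8.60, 39.9 and 30.4 in primary tumours. All metastases exceeded all primary tumours, and the primary tumour of mouse 2 was the lowest by a wide margin. Means were 104 ± 49.9 in lung metastases, against 28.4 ± 13.7 in primary tumours, a 3.67-fold difference, with a log2 rise of 1.92 (SE 0.462, adjusted p = 0.0272). The call ended without the lung metastasis of mouse 2 (adjusted p = 0.0710) or the primary tumour of mouse 4 (0.0619), within a range of 0.000991 to 0.0710 over its 18 alternatives.

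Loxl1, the family member most closely tied to elastin renewal, had the smallest standard error of the 10. It had 35.7, 68.7, 58.3 and 59.5 normalised read counts in lung metastases, against 14.1, 9.74, 19.0 and 15.7 in primary tumours. The lowest metastasis, that of mouse 1, was still well above the highest primary tumour. Means were 55.6 ± 14.0 in lung metastases, against 14.6 ± 3.86 in primary tumours, a 3.79-fold difference, with a log2 rise of 1.85 (SE 0.264, adjusted p = 0.00165) that passed under all 18 alternatives, as did the rises of Eln and Mfap4.

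Loxl3, an oxidase of the scavenger receptor domain subgroup that acts on collagen and fibronectin, ran the other way without passing. It had 58.5, 86.9, 33.3 and 54.3 normalised read counts in lung metastases, against 124, 74.0, 141 and 140.4 in primary tumours. In mice 1, 3 and 4 the primary tumour held 2.12 to 4.25 times the level of the metastasis, whereas in mouse 2 the metastasis held 1.18 times the primary tumour, so the groups overlapped. Means were 58.3 ± 22.1 in lung metastases, against 120.0 ± 31.7 in primary tumours, with a log2 difference of -1.06 (95% interval -1.73 to -0.40, adjusted p = 0.0519). It passed with DESeq2 (adjusted p = 0.0139), with array weights (0.0120) and without the lung metastasis (0.0290) or the primary tumour (0.0265) of mouse 2; with the mouse as a block it stood at 0.106, and the range over its 18 alternatives was 0.0120 to 0.159.

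Loxl2 and Loxl4, of the same subgroup, which cross-link collagen IV and other collagens, did not pass either. Loxl2 had 20.3, 51.5, 18.8 and 63.2 normalised read counts in lung metastases, against 22.6, 31.5, 27.2 and 29.9 in primary tumours. The metastases split into mice 2 and 4 above every primary tumour and mice 1 and 3 below every one (log2 difference 0.27, 95% interval -0.56 to 1.10, adjusted p = 0.702). Loxl4 had 14.2, 22.6, 9.26 and 24.0 in lung metastases, against 9.46, 32.7, 20.5 and 13.5 in primary tumours, where mouse 2 was highest (log2 difference -0.06, 95% interval -0.96 to 0.83, adjusted p = 0.944).

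To compare levels between genes, values were divided by exon length. In lung metastases Lox led the family at 21.8 ± 10.5 normalised read counts per kb, followed by Loxl1 at 16.9 ± 4.25, Loxl3 at 12.7 ± 4.80, Loxl2 at 7.11 ± 4.14 and Loxl4 at 4.16 ± 1.66; the spreads (SD) of neighbours in this order overlapped. Primary tumours had a different order, with Loxl3 at 26.1 ± 6.89 per kb far above Lox at 5.94 ± 2.88, Loxl2 at 5.14 ± 0.724, Loxl4 at 4.52 ± 2.42 and Loxl1 at 4.44 ± 1.17, and only Loxl3 stood clear of its neighbour's spread. Loxl3 made up 10.8% to 27.8% of the family's summed level per kb in lung metastases, against 46.7% to 60.6% in primary tumours. Lox made up 21.7% to 54.15% in lung metastases, against 5.23% to 16.1% in primary tumours, and Loxl1 23.7% to 29.9% in lung metastases, against 8.58% to 10.5% in primary tumours. The summed family level was 62.6 ± 13.3 per kb in lung metastases, against 46.1 ± 8.77 in primary tumours, with overlap.

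**Figure D3:**
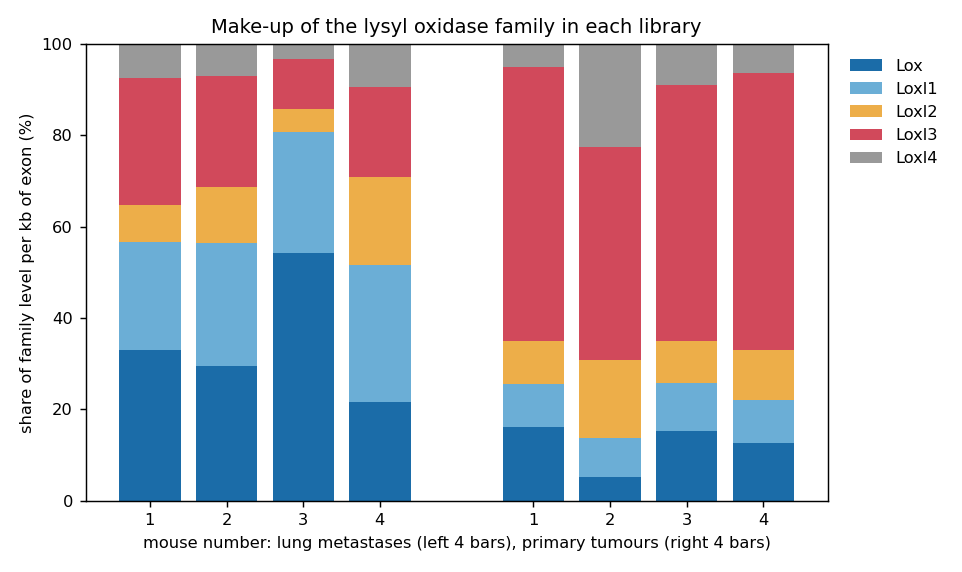
Share of each lysyl oxidase gene in the family's summed level per kb of exon (%), 1 bar per library, lung metastases of mice 1 to 4 left of primary tumours of mice 1 to 4. Loxl3 takes the largest share in every primary tumour (46.7% to 60.6%), while in lung metastases the largest share belongs to Lox (mice 1, 2 and 3) or Loxl1 (mouse 4).

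Among the fibre genes, Mfap4 stood at 40.3 ± 25.7 and Eln at 22.3 ± 14.1 per kb in lung metastases, with Efemp2 at 32.0 ± 16.1 between them, and Fbn1 at 5.81 ± 2.19 and Fbln5 at 4.00 ± 1.53 well below. In primary tumours Efemp2 led all 10 genes at 31.0 ± 4.50 per kb, and Fbn1 (2.34 ± 0.653), Eln (1.73 ± 0.921), Mfap4 (1.56 ± 1.02) and Fbln5 (1.38 ± 0.441) formed a low group with overlapping spreads.

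The libraries of 2 animals shaped much of the spread. Of the 4 lung metastases, that of mouse 3 was highest for Eln, Fbln5, Mfap4 and Lox and lowest for Efemp2, Loxl2, Loxl3 and Loxl4; without it the same count of 6 genes was called higher. It also had the lowest carcinoma epithelium sum (985, against 1574 to 3339 in the other lung metastases) and the highest lung epithelium sum (34497, against 7531 to 19471). The primary tumour of mouse 2 was the lowest primary tumour for 6 genes, Eln, Fbn1, Mfap4, Lox, Loxl1 and Loxl3, and the highest for Loxl2 and Loxl4. Its fibrillar collagen sum was 692, against 2040 to 2324 in the other primary tumours, and its endothelial and pericyte sums were the highest of the primary tumours (717 against 151 to 282, and 305 against 91.6 to 161). The part of these library differences in the results was not tested beyond leaving each library out.

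Markers of lung tissue moved with the genes that rose. Of 11 tested lung mesenchyme genes 8 were higher and 0 lower, with a summed level of 595 to 2068 in lung metastases, against 116 to 364 in primary tumours; edgeR called 6 higher and 0 lower, DESeq2 7 and 0, and 0 were lower at an unadjusted p under 0.05. Its defining transcription factor gene Tcf21 stood at 21.5 ± 11.1 in lung metastases and was listed at 0 in 3 of the 4 primary tumours. In the lung metastases the summed list ran from mouse 3 through 2 and 1 down to 4, the order shared by Eln, Fbln5 and Lox. Mfap4 kept the order (3, 1, 2, 4) shared by the lung epithelium, endothelium and cancer-associated fibroblast sums, and Fbn1 and Loxl1 kept neither. The lung epithelium sum leaned on Scgb1a1 (13234, 2144, 21013 and 3148 in the lung metastases of mice 1 to 4). Sftpc, the next largest gene of that list, ran 3, 2, 1, 4 (3957, 5014, 8152 and 3014). Most of the fibroblast sum in the lung metastasis of mouse 3 was Pi16 (289) and Pdgfra (243). Of the genes that did not pass, Loxl2 and Loxl4 ran 4, 2, 1, 3 in lung metastases, as did the carcinoma epithelium sum. Loxl3 ran 2, 1, 4, 3, as did the macrophage sum. Efemp2 ran 4, 1, 2, 3, as did, among others, the sums of the hypoxia and TGF-beta response lists given below. The matches differed in primary tumours. There the lung mesenchyme sum ran 3, 4, 1, 2, as did Fbn1, Loxl1 and Loxl3. Most of that sum was Npnt (97.1, 32.8, 285 and 134 in primary tumours 1 to 4) and Hhip (45.7, 63.9, 68.2 and 63.3). Neither gene was called, and Npnt alone ran in the order of the sum. Eln, Mfap4 and Lox ran 3, 1, 4, 2 in primary tumours, as did the lung epithelium, mesothelium, macrophage and fibrillar collagen sums. Fbln5 ran 3, 2, 4, 1. Loxl2 ran 2, 4, 3, 1, as did the endothelium and pericyte sums, and Loxl4 ran 2, 3, 4, 1, as did the smooth muscle sum. The mesothelium order in primary tumours was that of Msln, and the lung epithelium sum was low there (14.6 to 29.3). Such orders of 4 values are a description. Lung epithelium had 11 of 12 genes higher, with sums of 7531 to 34497 in lung metastases, against 14.6 to 29.3 in primary tumours. Mesothelium had 8 of 8 higher, with sums of 212 to 618 in lung metastases, against 55.6 to 143 in primary tumours. In primary tumours nearly all of that sum was Msln (107, 54.8, 143 and 75.6 in mice 1 to 4), and the other markers were at or near 0. For this list edgeR called 7 higher and DESeq2 8. The Msln call was lost with edgeR (adjusted p = 0.05695), a pseudocount of 5 (0.0502), a minimum of 5 (0.0534) and the mouse as a block (0.0854). It was also lost without the lung metastasis of mouse 2 (0.1095) or 4 (0.08) or the primary tumour of mouse 1 (0.08195), 2 (0.1029) or 4 (0.1341). Neutrophils had 8 of 8 higher, with 7466 to 28348 in lung metastases, against 195 to 1156 in primary tumours, and endothelium 4 of 8 (Cldn5, Kdr, Tek and Vwf), with 489 to 2275 in lung metastases, against 151 to 717 in primary tumours. For endothelium edgeR called 3 higher and DESeq2 5, and Cldn5 was lost with edgeR (adjusted p = 0.0803) and without the lung metastasis of mouse 1 (0.0618) or the primary tumour of mouse 1 (0.0695), 3 (0.0687) or 4 (0.0634), within 0.00142 to 0.0803 over its alternatives. Vwf was lost without the primary tumour of mouse 1 (0.0612), 3 (0.0634) or 4 (0.0615), within 9.57e-06 to 0.0634. Mesothelium had 2 markers at 0 in every primary tumour, Nkain4 and Rspo1; no other list named here had one. The part of normal lung tissue, mesothelium, vessels or neutrophils in the rise of the 6 genes was not tested.

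Markers of contractile and tumour stroma were mixed. Smooth muscle, another source of elastin, had 2 of 8 genes higher, Cnn1 and Des, and 0 lower, with overlapping sums of 217 to 366 in lung metastases, against 164 to 287 in primary tumours; edgeR called 1 higher and DESeq2 3, both 0 lower, and 0 were lower at an unadjusted p under 0.05. Pericyte genes had 1 of 8 higher, Cox4i2, and 2 lower, Abcc9 and Rgs5 (sums 60.0 to 167 in lung metastases, against 91.6 to 305 in primary tumours); edgeR called 0 higher and 1 lower, and DESeq2 1 and 1. Cancer-associated fibroblast genes had 2 of 10 higher, Dpt and Pdpn, and 4 lower, Col12a1, Lrrc15, Thy1 and Fap (sums 302 to 661 in lung metastases, against 403 to 544 in primary tumours); edgeR called 3 higher and 3 lower, and DESeq2 3 and 4. Macrophage genes had 1 of 8 lower, Trem2, and 0 higher (sums 639 to 1488 in lung metastases, against 1093 to 2431 in primary tumours); edgeR called 0 lower and DESeq2 1, both 0 higher, and 0 were higher at an unadjusted p under 0.05. Carcinoma epithelium genes had 1 of 8 higher, Krt19, and 0 lower; edgeR and DESeq2 called 0 lower and 1 was lower at an unadjusted p under 0.05. Rgs5, Pdpn, Col12a1, Lrrc15, Thy1 and Krt19 kept their calls under every alternative run. The mouse block ended the calls of Cnn1 (adjusted p = 0.0708), Cox4i2 (0.0848), Abcc9 (0.0544), Fap (0.0647) and Trem2 (0.0548), and edgeR those of Cnn1 (0.0658), Cox4i2 (0.0571), Abcc9 (0.191), Fap (0.0984) and Trem2 (0.0577). Leaving out 1 library ended the calls of Cnn1 and Cox4i2 (lung metastasis of mouse 1 or 3, or several primary tumours), of Abcc9 (lung metastasis of mouse 1 or 2, or any primary tumour), of Fap (lung metastasis of mouse 1, or any primary tumour), of Trem2 (lung metastasis of mouse 1, or primary tumour of mouse 1, 3 or 4) and of Des (lung metastasis of mouse 1, or primary tumour of mouse 3 or 4). Over their alternatives the adjusted p reached 0.143 for Cnn1, 0.110 for Cox4i2, 0.191 for Abcc9, 0.129 for Fap, 0.110 for Trem2 and 0.0580 for Des. Apart from Dpt, the genes named from the marker lists were chosen after their values were seen, and the part of these cells in the results was not tested.

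**Figure D4:**
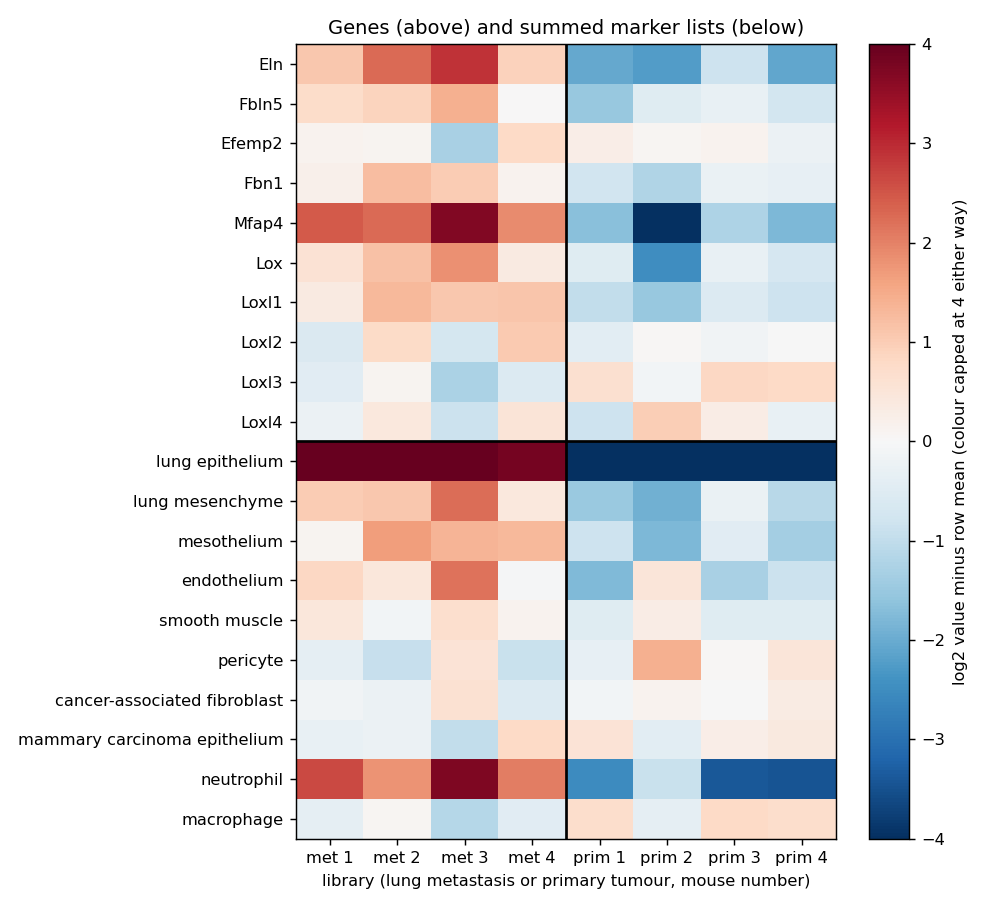
Log2 of the normalised read count of each gene (upper rows) and of each summed marker list (lower rows) minus the row's mean over 8 libraries (colour capped at 4), lung metastases 1 to 4 left of primary tumours 1 to 4. Eln, Fbln5, Mfap4 and Lox are darkest red in lung metastasis 3, as are the lung mesenchyme, endothelium, smooth muscle, cancer-associated fibroblast and neutrophil sums. The fibroblast sum there is mostly Pi16 (289) and Pdgfra (243). Those genes and Dpt were highest of the lung metastases in that library, while Col12a1, Fap, Inhba and Cthrc1 were lowest. The lung epithelium sum is also highest there, with its colour capped. Mfap4 and Lox are darkest blue in primary tumour 2.

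Most partners of the elastic fibre did not pass, and those that did went both ways. Of 15 tested microfibril and elastic fibre partners 3 were higher, Efemp1, Vcan and Fbln1, and 2 lower, Ltbp3 and Ltbp2, with a median log2 change of 0.47; edgeR called 2 higher and 2 lower, and DESeq2 4 and 2. Efemp1, encoding fibulin-3, a close relative of the fibulin genes above, had 30.5, 63.1, 62.1 and 33.5 normalised read counts in lung metastases, against 4.09, 1.66, 1.96 and 0.916 in primary tumours (log2 change 3.95, adjusted p = 0.000168). Vcan, the large proteoglycan versican, which binds fibrillin microfibrils, stood at 49.3 ± 10.3 in lung metastases, against 11.6 ± 5.81 in primary tumours (log2 change 2.08, adjusted p = 0.00256). The groups did not overlap for either gene.

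Ltbp3, a latent TGF-beta binding protein, fell to 351 ± 108 in lung metastases, against 791 ± 168 in primary tumours (log2 change -1.22, adjusted p = 0.0219). The call was lost with the mouse as a block (adjusted p = 0.0604) and without the primary tumour of mouse 1 (0.0544), 3 (0.0741) or 4 (0.0649), within a range of 0.000449 to 0.0741 over its alternatives. Ltbp2, a relative that binds fibrillin-1 and fibulin-5, stood at 142 ± 33.8 in lung metastases, against 274 ± 57.1 in primary tumours (log2 change -0.96, adjusted p = 0.0257); its call ended without the lung metastasis of mouse 1 (0.0520) or the primary tumour of mouse 2 (0.0697), 3 (0.0816) or 4 (0.0578), within 0.00160 to 0.0816. Fbln1, named here to complete the count after its values were seen, stood at 17.1 ± 1.81 in lung metastases, against 6.30 ± 3.42 in primary tumours (adjusted p = 0.0386). The Fbln1 call was lost with edgeR (0.0760) and without the lung metastasis of mouse 1 (0.0832), 2 (0.0774), 3 (0.0502) or 4 (0.0592) or the primary tumour of mouse 4 (0.110), within 0.0118 to 0.110 over its alternatives.

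No gene that processes the oxidases was called higher. Of 7 tested genes of lysyl oxidase processing and copper supply 2 were lower and 0 higher, with a median log2 change of -0.13; edgeR called 1 lower and DESeq2 2, both 0 higher, and 0 were higher at an unadjusted p under 0.05. Postn, encoding periostin, a matricellular protein that promotes Lox activation by Bmp1, had 64.9, 50.9, 86.5 and 33.8 normalised read counts in lung metastases, against 336, 84.4, 388 and 395 in primary tumours. The groups touched, since the primary tumour of mouse 2 lay just below the metastasis of mouse 3. Its log2 change was -2.18 (adjusted p = 0.0161), and the call ended without the primary tumour of mouse 1 (0.0576), 3 (0.0557) or 4 (0.0622), within 1.93e-05 to 0.0622 over its alternatives. Bmp1, the protease that cleaves the Lox propeptide, stood at 216 ± 73.1 in lung metastases, against 457 ± 93.6 in primary tumours (log2 change -1.14, adjusted p = 0.0397). The Bmp1 call was lost with the mouse as a block (0.0533), with edgeR (0.0527), and without the lung metastasis of mouse 1 (0.0638) or 2 (0.0558) or the primary tumour of mouse 1 (0.109), 3 (0.107) or 4 (0.131), within 0.00245 to 0.131.

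Genes of collagen, the other substrate of the enzymes, mostly did not pass. Of 7 tested fibrillar collagen genes 1 was lower, Col5a3, and 0 higher, with a median log2 change of -0.13; edgeR and DESeq2 each called 1 lower and 0 higher, and 0 were higher at an unadjusted p under 0.05. Col5a3, a minor collagen V chain, had 9.37, 13.5, 9.40 and 13.5 normalised read counts in lung metastases, against 24.5, 33.7, 35.2 and 27.2 in primary tumours (log2 change -1.33, adjusted p = 0.00510), without overlap.

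Among 14 tested elastases and inhibitors 3 were higher and 0 lower, with a median log2 change of 0.01; edgeR called 2 higher and DESeq2 4, both 0 lower, and 1 was lower at an unadjusted p under 0.05. Timp3, a matrix-bound metalloproteinase inhibitor, had 51.8, 134, 203 and 66.1 normalised read counts in lung metastases, against 3.34, 18.5, 5.39 and 5.60 in primary tumours (log2 change 3.68, adjusted p = 0.00149). Ctsg, the neutrophil protease cathepsin G, stood at 12.95 ± 10.2 in lung metastases, against 1.49 ± 1.23 in primary tumours (log2 change 2.39, adjusted p = 0.0222). That call ended with a pseudocount of 0.1 (0.0579), with edgeR (0.104) and without the lung metastasis of mouse 1 (0.0606) or the primary tumour of mouse 3 (0.0646) or 4 (0.0695), within 0.00237 to 0.104. Mmp9, gelatinase B, which cleaves elastin, stood at 338 ± 316 in lung metastases, against 63.9 ± 27.7 in primary tumours (log2 change 2.07, adjusted p = 0.0384). It was lost with the mouse as a block (0.0625) and without the lung metastasis of mouse 1 (0.0961) or the primary tumour of mouse 1 (0.0855), 3 (0.116) or 4 (0.112), within 0.000327 to 0.116. The neutrophil marker list, given above, moved with Ctsg and Mmp9, and its part was not tested. None of the 6 elastin receptor complex genes was called by limma, edgeR or DESeq2 in either direction, 0 had an unadjusted p under 0.05, and their median log2 change was -0.38.

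Lox is a known target of hypoxia signalling, and Lox and Eln of TGF-beta, so responses to both were listed. Of 12 hypoxia response genes 2 were lower and 0 higher, with a median log2 change of -0.74; edgeR called 1 lower and 0 higher, DESeq2 4 and 1, and 1 was higher at an unadjusted p under 0.05. Ddit4, a stress-induced inhibitor of mTOR signalling, stood at 69.3 ± 16.4 in lung metastases, against 153 ± 25.2 in primary tumours (log2 change -1.16, adjusted p = 0.00771). Egln3, a prolyl hydroxylase of the hypoxia pathway, stood at 96.5 ± 38.4 in lung metastases, against 250 ± 110 in primary tumours (log2 change -1.36, adjusted p = 0.0455). The Egln3 call was lost in 9 of 18 alternatives, among them leaving out the lung metastasis of mouse 2 (0.0851) or 4 (0.0547), or the primary tumour of mouse 1 (0.0503), 2 (0.108), 3 (0.0635) or 4 (0.141), within 0.00580 to 0.141.

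Of 9 TGF-beta response genes 3 were lower and 0 higher, with a median log2 change of -0.13; edgeR called 3 lower and 0 higher, DESeq2 3 and 1, and 2 were higher at an unadjusted p under 0.05. Pmepa1, a feedback inhibitor of the pathway, had 150 to 246 normalised read counts in the lung metastases of mice 1, 2 and 4 and 71.5 in that of mouse 3, against 324 to 710 in primary tumours (log2 change -1.83, adjusted p = 0.00998). Skil, encoding the repressor SnoN, stood at 160.4 ± 25.0 in lung metastases, against 307 ± 66.3 in primary tumours (log2 change -0.91, adjusted p = 0.0202). Its call was lost with the mouse as a block (0.0584) and without the lung metastasis of mouse 1 (0.0577) or the primary tumour of mouse 1 (0.0703), 3 (0.0730) or 4 (0.0781), within 0.000478 to 0.0781. The third was Ltbp2, given above.

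The genes whose profiles over the 8 libraries lay nearest to Eln, by root mean square difference of centred log2(value + 1), were Gata6 (0.31), Tspan8 (0.35) and Baiap2l1 (0.36). Gata6, a transcription factor gene of lung and heart, had 11.0, 19.8, 26.3 and 10.8 normalised read counts in lung metastases, against 0, 0.0789, 0.809 and 0 in primary tumours. Tspan8, a tetraspanin, stood at 79.1 ± 33.0 in lung metastases, against 5.42 ± 2.56 in primary tumours, and Baiap2l1, a membrane-curving adaptor, at 89.5 ± 32.3 in lung metastases, against 8.53 ± 4.12 in primary tumours. Nearest to Lox were Rgs18 (0.27), a regulator of G protein signalling of platelets and blood cells, Pard3b (0.34), a polarity protein, and Dpt (0.36), the matrix protein dermatopontin. Dpt stood at 27.0 ± 10.0 in lung metastases, against 6.52 ± 2.53 in primary tumours, Pard3b at 11.9 ± 6.18 in lung metastases, against 1.91 ± 0.846 in primary tumours, and Rgs18, which did not pass (adjusted p = 0.0932), at 15.7 ± 8.75 in lung metastases, against 4.74 ± 2.89 in primary tumours. Of the 10 genes themselves, Loxl1 (0.54) and Fbn1 (0.56) lay closest to Lox, and Mfap4 (0.74) closest to Eln. Likeness here includes the difference between the groups and is a description.

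Reads are uncertain where gene models overlap, because the library kit is not described as marking strand. Loxl3 shares 535 exonic bases with Htra2 on the opposite strand, Efemp2 173 with Mus81 and Mfap4 89 with Mapk7. None of these neighbours was called by limma. Htra2 stood at 34.9 ± 9.06 in lung metastases, against 46.2 ± 3.15 in primary tumours, Mus81 at 19.8 ± 2.77 in lung metastases, against 23.9 ± 3.80 in primary tumours, and Mapk7 at 32.6 ± 6.73 in lung metastases, against 35.7 ± 1.92 in primary tumours. Antisense models also overlap Eln over 267 bases, Loxl2 over 301 and Lox over 30, and Fbn1 shares 2442 with the model Gm9913.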

How the data were processed

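RNA of bulk 4T1-derived tumours was extracted with an RNeasy kit and sequenced from TruSeq libraries, per the labels' protocols; the build was mm9, per the submitters' processing notes, while aligner, counter and annotation were not given in the sources used here. The deposited table holds signal values, gene read counts that the authors divided by a scaled library size to a level of about 1000000; column totals of 962401 to 1044330 show they are not plain CPM, which the plan had allowed for. In the 8 BC columns 100% of values were whole multiples of 1 read within 0.05 reads, so reads were recovered. A further 12 PDAC columns were not used.

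Genes that reached 1 in 4 or more of the 8 libraries were tested with limma 3.58.1 (R 4.3.3) with an intensity trend on log2(value + 1), group means only, and called at a Benjamini-Hochberg adjusted p under 0.05 over all 14003 genes. Adjusted p-values are limma's unless edgeR (4.0.16) or DESeq2 (1.42.0), both run on the recovered reads, is named. As a check of the code, the fit was run on simulated counts with known changes, with genes drawn independently and libraries otherwise differing only in depth. This was not a test of the calls in these data. Same-numbered libraries were taken to come from the same mouse, because their titles share a code. Deviations of these library pairs from the group means correlated at -0.151 to 0.096. Other alternatives were the mouse as a block, pseudocounts of 0.1 and 5, no filter or a minimum of 5, median-ratio and TMM scaling, array weights and leaving out each library. Exon lengths are from GENCODE M21 models, of another build, used for lengths only; the authors' annotation may differ. Counting error alone is small at these depths except for values that rest on few reads, such as the 6 reads of Mfap4 in the primary tumour of mouse 2. Reads carry no molecular identifiers. The genes and lists were chosen with earlier results of these data known. Named were all 10 genes, up to 3 called genes with the smallest p of each pathway or response list, and the 3 nearest profiles to Eln and to Lox.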

Additional observations from a re-analysis of the deposited data

Results flagged for a closer look

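Of 60 sets of 4 values checked, 4 held a library far from the others, and chance flags about 1 set in 20. Eln in the primary tumour of mouse 3 stood at 25.15, against 9.427 to 10.89 in the other primary tumours. Gata6, the profile nearest to Eln, stood at 0.8092 in the same library, against 0 to 0.0789 in the others. Bmp1 in the lung metastasis of mouse 3 stood at 106.5, against 249.9 to 254.8 in the other lung metastases. Timp3 in the primary tumour of mouse 2 stood at 18.5, against 3.338 to 5.601 in the other primary tumours.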

How the results depend on the processing

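The 6 rises kept their direction under all 18 alternatives, and 6 genes were called higher under every one that kept all 8 libraries. Leaving out 1 library gave 3 to 6 genes called higher, 0 to 1 called lower and 711 to 1603 genes called in all, against 6, 0 and 1279; the fewest genes in all came without the primary tumour of mouse 4 (711), and 3 of the 10 were called higher without it or without the lung metastasis of mouse 2. Without the primary tumour of mouse 1 or 3, 851 or 852 genes were called. Array weights called 2283 genes and DESeq2 1985, and each called 1 of the 10 genes (Loxl3) lower; the cause was not tested. The replicate block (mouse) called 1112 genes and 6 of the 10 higher; among the 10 genes and those chosen by the naming rule it ended the calls of Ltbp3, Bmp1, Mmp9 and Skil, given above, and no other, and among further marker genes those of Abcc9, Cnn1, Cox4i2, Fap, Trem2 and Msln. Genes near 0 changed sign: Efemp2 to 0.16 with array weights, 0.055 with edgeR and 0.073 with DESeq2, and it ranged from -0.40 to 0.29 without single libraries (positive without the lung metastasis of mouse 3). Loxl4 turned to 0.14 with array weights and ranged from -0.33 to 0.23 without single libraries, positive without the lung metastasis of mouse 1 (0.0026) or 3 (0.19) or the primary tumour of mouse 2 (0.23) or 3 (0.017). Loxl2 ranged from -0.026 (without the lung metastasis of mouse 4) to 0.54. With 4 libraries a group, differences inside the intervals of Efemp2, Loxl2 and Loxl4 could not be resolved.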
